A study of Homo sapiens with 6 samples.

Results

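Molecular chaperones of the cytosol and the mitochondrial matrix were examined in OE-19 cells after IGF2BP3 knockdown (KD). The set holds 35 genes, listed by symbol with earlier results of these data known and with no rule on their measured values: the HSP70, HSP110 and HSP90 chaperones with their co-chaperones, J-domain and BAG proteins, small heat shock proteins, the 8 subunits of the CCT chaperonin, the mitochondrial chaperones and the heat shock factors HSF1 and HSF2. All 35 symbols were found once each among the 60480 gene identifiers of the count table, and 34 passed the low-count filter. The exception was *HSPB8*, a small heat shock protein gene that had 0 counts in each of the 6 libraries, which allows up to 3 counts in a library.

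OE-19 is an established line of adenocarcinoma cells of the esophagogastric junction. RNA-seq was done on poly(A) RNA of 3 control libraries, labelled as a control knockdown and named Puro in the table, and 3 libraries of cells with IGF2BP3, an RNA-binding protein and m6A reader, knocked down by shRNA. All libraries came from the same line, cultured in RPMI1640 with serum, and neither the labels nor the study's methods say whether the 3 libraries of a group are separate cultures or carry the same hairpin, so p-values measure the spread between these libraries only. The comparison asks which transcripts change when IGF2BP3 is depleted.

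Chaperones bind proteins that are not yet folded or have lost their fold. HSP70 proteins take up exposed stretches of a client that J-domain proteins hand to them, and HSP110 and BAG proteins make HSP70 release nucleotide and client again. HSP90 finishes the folding of kinases and receptors with its own co-chaperones, and the ring-shaped CCT complex folds actin and tubulin. Under proteotoxic stress, HSF1 binds heat shock elements in the promoters of many of these genes and raises their transcription.

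*IGF2BP3* itself (ENSG00000136231) had 7416, 7363 and 6532 counts in control libraries 1, 2 and 3 and 777, 792 and 794 counts in KD libraries 1, 2 and 3. It fell by 3.03 on the log2 scale (SE, SE, 0.06), with an adjusted p of 3.1e-10. This p and those that follow are from the quasi-likelihood test of edgeR with Benjamini-Hochberg adjustment over all tested genes. The libraries held 53424071 to 69989087 counts each. In bulk RNA, fewer cells of one kind and less RNA per cell cannot be told apart. The epithelial markers *EPCAM*, *CDH1*, *KRT8*, *KRT18* and *KRT19* had at least 26738 counts in every library. Their averages in control cells were at least 473 CPM (counts scaled to a common library size). At an adjusted p under 0.05, *EPCAM* was higher in KD cells (log2 fold change 0.15) and *KRT8* and *KRT18* were lower (-0.06 and -0.07). *CDH1* and *KRT19* did not pass this threshold. Of 10 markers of blood, endothelial, stromal and muscle cells, *CD3E*, *COL1A2* and *DES* had 0 counts in every library and 5 others had at most 39 counts in any library. The remaining 2, *CD68* and *COL1A1*, were higher in KD cells by 0.54 and 0.50 on the log2 scale. The summed level of the 10 markers was 54.2 to 61.2 CPM in control and 83.6 to 84.1 CPM in KD libraries. Nearly all of this sum came from *CD68* and *COL1A1*. *CD68* shares 81.6% of its exonic bases with a long non-coding RNA gene on the same strand. The part of these markers in the chaperone results was not tested.

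Of the 34 tested chaperone genes, 12 were lower and 7 were higher in KD cells at an adjusted p under 0.05, and 15 were not called. Over all 19778 tested genes, 20.4% were called, 10.6% lower and 9.87% higher. Most chaperones were strongly expressed, and 32 of the 34 averaged 10 CPM or more. Of the 9857 tested genes at or above this level, a limit set after the data were seen, 35.8% were called (19.3% lower and 16.5% higher), and 19 of these 32 chaperones were called. The changes were small. The median log2 fold change of the 34 genes was -0.09, against 0.01 over all tested genes. Among genes averaging 10 CPM or more, the median was -0.07 for the 32 chaperones and -0.01 for all tested genes. The range of the 34 chaperones ran from -0.83 for *CHORDC1* to 0.66 for *HSPA1A*. The 3 KD libraries did not overlap the 3 control libraries in 25 of the 34 genes, against 35.8% of all tested genes and 52.7% of those with at least 10 CPM.

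**Figure D1:**
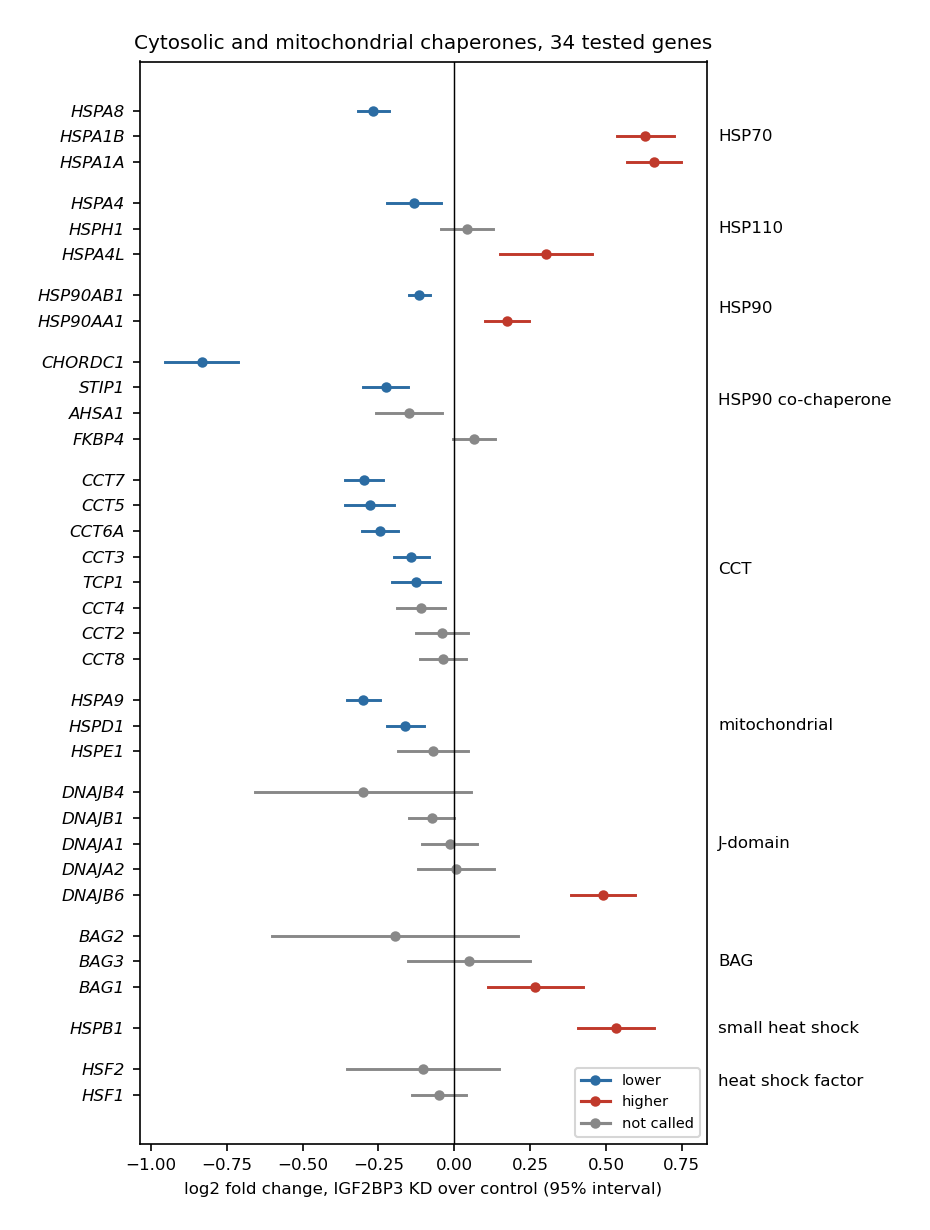
Log2 fold change (x axis, IGF2BP3 KD over control) of the 34 tested chaperone genes with 95% intervals from edgeR, grouped by role, with blue for lower, red for higher and gray for genes not called. All CCT and mitochondrial genes lie left of 0, while the HSP70, HSP110 and HSP90 classes each hold a gene that was lower and at least 1 that was higher.

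Promoter sequences of these genes were searched for heat shock elements, because the set is known for its control by HSF1. The windows come from RefSeq on GRCh38.p14 and run from 250 bases before to 50 bases after each start site, with several windows for genes with several starts. The element searched was GAA, then TTC, then GAA, each separated from the next by 2 bases of any kind, and its reverse complement, so that both strands were covered. Matches of the 2 forms can overlap, and then only the first is in capitals. Of the 32 members with a window, 7 held a match, against 0.608% of the 27305 genes with a window. *HSF1*, *CCT6A* and *FKBP4* had no window. The matches are printed below on the strand of the gene, with the matched letters in capitals, since the element occurs in genes that moved in opposite directions.

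HSPA8, chr11:123062345-123062374, minus strand: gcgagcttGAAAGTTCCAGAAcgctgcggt

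HSPA8, chr11:123062170-123062199, minus strand: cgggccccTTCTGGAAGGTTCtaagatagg

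HSPD1, chr2:197500061-197500090, minus strand: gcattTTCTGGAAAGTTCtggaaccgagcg

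HSP90AA1, chr14:102087111-102087140, minus strand: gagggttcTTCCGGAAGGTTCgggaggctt

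HSP90AB1, chr6:44247770-44247799, plus strand: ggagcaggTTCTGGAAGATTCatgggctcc

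HSP90AB1, chr6:44247823-44247852, plus strand: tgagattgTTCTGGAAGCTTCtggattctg

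DNAJA1, chr9:33025268-33025297, plus strand: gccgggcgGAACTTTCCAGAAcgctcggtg

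DNAJB6, chr7:157336865-157336894, plus strand: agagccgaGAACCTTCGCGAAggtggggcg

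CHORDC1, chr11:90223088-90223117, minus strand: cgcgaccgGAAAATTCGCGAAggttcctga

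Of these 7 genes, *HSPA8*, *HSPD1*, *HSP90AB1* and *CHORDC1* fell, *HSP90AA1* and *DNAJB6* rose, and *DNAJA1* was not called. The windows of *HSPA1A*, *HSPA1B* and *HSPB1*, which rose, held neither form of it. A match here is a run of letters and not a measured site of HSF1 binding. Only exact matches were searched for, so a window without one is not shown to lack a heat shock element.

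Within the HSP70 class the inducible and the constitutive genes moved apart. *HSPA1A* (ENSG00000204389, hg38 chromosome 6, 31815543 to 31817946), which encodes the stress-inducible HSP70, had 108.5, 117.4 and 119.9 CPM in control libraries 1, 2 and 3 and 184, 179 and 183 CPM in KD libraries 1, 2 and 3. Each KD library was above each control library, and the log2 fold change was 0.66 (SE 0.04, adjusted p = 1.29e-06). Its neighbour *HSPA1B* (ENSG00000204388, chromosome 6, 31827738 to 31830254), which encodes nearly the same protein, had 111, 119 and 124 CPM in control and 181, 179 and 187 CPM in KD libraries and rose by 0.63 on the log2 scale (SE 0.04). The 2 transcripts cannot be counted apart with certainty, since 72.4% of the windows of 100 bases in the *HSPA1A* transcript also occur in *HSPA1B*. With the counts of both genes summed, the log2 fold change was 0.64 (adjusted p = 8.34e-07 from the same test).

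*HSPA8* (ENSG00000109971, chromosome 11, 123057489 to 123063230) encodes HSC70, the HSP70 of unstressed cells, and was the most abundant of the 3. It had 1666, 1582 and 1613 CPM in control and 1369, 1336 and 1333 CPM in KD libraries. The groups did not overlap, and the log2 fold change was -0.27 (SE 0.02, adjusted p = 1.48e-05). Measured per length, *HSPA8* stood at 716 CPM per kb of transcript in control cells, against 48.0 for *HSPA1A*. As a share of the counts of these 3 genes, *HSPA1A* and *HSPA1B* together took 11.6% to 13.1% in control libraries and 21.0% to 21.7% in KD libraries.

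The HSP110 genes, whose products exchange nucleotide on HSP70, did not share a direction. *HSPA4L* rose from 20.5 ± 1.32 to 25.3 ± 0.895 CPM (SD, n = 3), a log2 fold change of 0.30 (SE 0.07). *HSPA4* fell from 145 ± 5.23 to 132 ± 4.85 CPM with an adjusted p of 0.0366 (edgeR, log2 fold change -0.13), a call near the threshold. Its adjusted p rose to 0.0869 without control library 1, 0.0785 without control library 3, 0.0718 without KD library 1 and 0.157 without KD library 2. *HSPH1*, which encodes HSP105, was not called, with a 95% interval of its log2 fold change from -0.05 to 0.13.

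The cytosolic HSP90 genes formed a second pair that moved apart. *HSP90AA1* (ENSG00000080824, chromosome 14, 102080742 to 102139699), the stress-inducible alpha gene, had 781, 713 and 731 CPM in control and 856, 827 and 827 CPM in KD libraries. It rose by 0.17 on the log2 scale (SE 0.03, adjusted p = 0.00297). *HSP90AB1* (ENSG00000096384, chromosome 6, 44246166 to 44253888), the constitutive beta gene and the most abundant chaperone of the set, had 2846, 2857 and 2833 CPM in control and 2626, 2617 and 2636 CPM in KD libraries. This is a log2 fold change of -0.12 (SE 0.02, adjusted p = 3.96e-04), the smallest change called in the set, and the groups did not overlap. *HSP90AA1* took 21.5%, 19.98% and 20.5% of the counts of both genes in control libraries and 24.6%, 24.0% and 23.9% in KD libraries.

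Among HSP90 co-chaperones, *CHORDC1* (ENSG00000110172, chromosome 11, 90200429 to 90223077), which encodes the CHORD-domain protein CHP1 or morgana, had the largest fall of all chaperones in the set. Its level was 96.8, 84.1 and 91.5 CPM in control and 51.6, 51.4 and 50.01 CPM in KD libraries. The highest KD library lay far below the lowest control library, and the log2 fold change was -0.83 (SE 0.05, adjusted p = 1.88e-06). *STIP1*, which encodes HOP, the adaptor that passes clients from HSP70 to HSP90, fell from 144 ± 3.96 to 123 ± 0.729 CPM (SD, n = 3). *AHSA1*, the activator of the HSP90 ATPase, went from 70.5 ± 1.69 to 63.6 ± 3.25 CPM and was not called (adjusted p = 0.0573). *FKBP4*, a prolyl isomerase of steroid receptor complexes, was not called either, with a 95% interval of its log2 fold change from -0.0028 to 0.13.

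**Figure D2:**
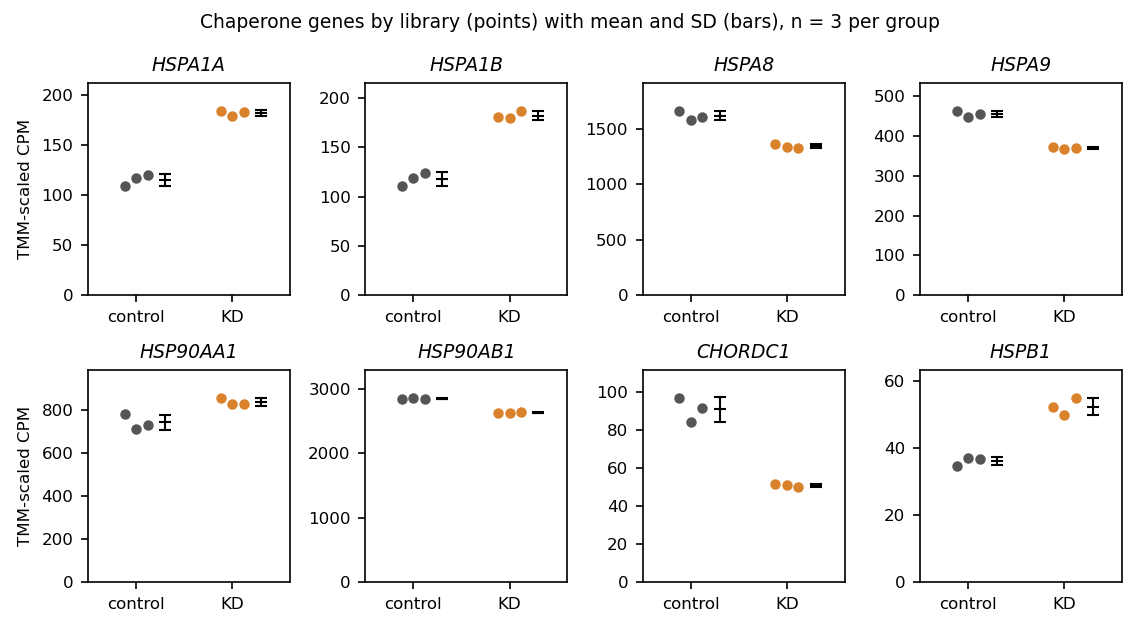
TMM-scaled CPM (y axis, from 0) of 8 chaperone genes in each of the 3 control and 3 IGF2BP3 KD libraries (points), with the mean and SD of each group as bars. HSPA1A, HSPA1B, HSP90AA1 and HSPB1 are higher and HSPA8, HSPA9, HSP90AB1 and CHORDC1 lower in KD libraries, with no overlap between the groups in any of the 8 panels.

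The CCT chaperonin (TRiC) is a double ring in which each of its 8 subunits occurs once per ring. All 8 subunit genes had a log2 fold change below 0, and 5 of them fell. Among tested genes averaging 10 CPM or more, 5173 of 9857 had a log2 fold change below 0 and 19.3% were called lower. *CCT7* (ENSG00000135624, chromosome 2, 73233420 to 73253021) had 298, 295 and 283 CPM in control and 235, 238 and 240 CPM in KD libraries, a log2 fold change of -0.30 (SE 0.03, adjusted p = 3.61e-05). *CCT5* followed at -0.28 (SE 0.04), *CCT6A* at -0.24 (SE 0.03), *CCT3* at -0.14 (SE 0.03) and *TCP1*, the gene of the alpha subunit, at -0.13 (SE 0.04). In each of these 5 genes the KD libraries lay below all control libraries.

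The calls within the complex were not all equally firm. The call of *TCP1* (adjusted p = 0.0281 in edgeR) was lost without control library 1, control library 2, KD library 1 or KD library 2, with adjusted p-values of 0.0508, 0.0853, 0.0958 and 0.105. *CCT4* just missed the threshold at an adjusted p of 0.0518 (log2 fold change -0.11). It was called lower in 7 of 15 alternative analyses, among them DESeq2 and edgeR without control library 3 (adjusted p = 0.00959 and 0.0280). The intervals of *CCT2* and *CCT8* ran from -0.12 to 0.04 and from -0.11 to 0.04, which leaves out falls as large as those of *CCT5*, *CCT6A* and *CCT7*. Measured per length in control cells, *CCT3* was highest at 204 CPM per kb, *CCT7* had 158 and *CCT6A* 128, *CCT8* and *CCT4* had 109 and 106, and *CCT2*, *CCT5* and *TCP1* had 73.6, 62.3 and 60.6. *CCT8* and *CCT4* overlapped across control libraries in this order, as did *CCT5* and *TCP1*.

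**Figure D3:**
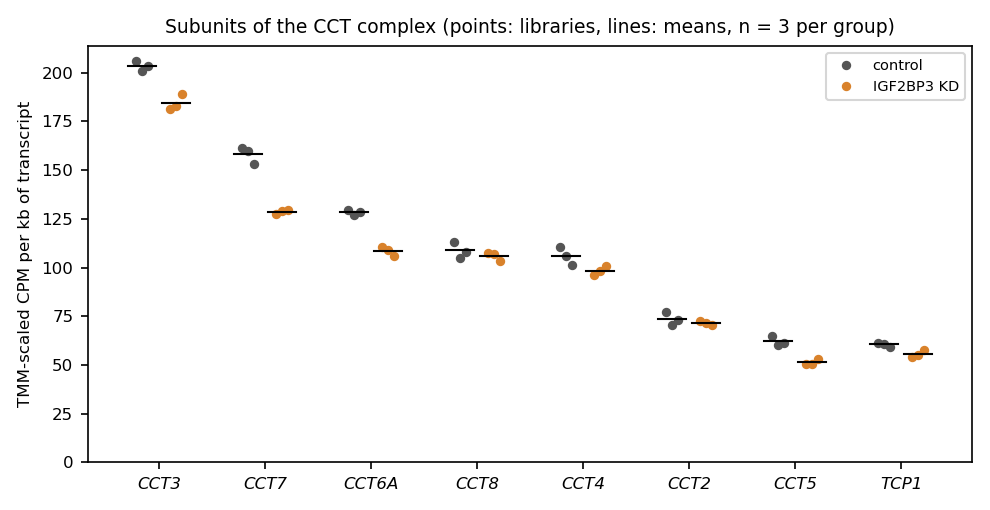
TMM-scaled CPM per kb of canonical transcript (y axis) of the 8 CCT subunit genes in control (gray) and IGF2BP3 KD (orange) libraries, with group means as lines. The subunits differ in level far more than the groups do, and CCT7, CCT6A and CCT5 show KD libraries clearly below control libraries while CCT8 and CCT2 show overlap.

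Of the mitochondrial matrix chaperones, *HSPA9* (ENSG00000113013, chromosome 5, 138553756 to 138575675), which encodes mortalin, the HSP70 of the matrix that also pulls proteins through the import channel, fell most. It had 464, 448 and 457 CPM in control and 374, 368 and 371 CPM in KD libraries, a log2 fold change of -0.30 (SE 0.02, adjusted p = 1.07e-05). *HSPD1*, the gene of HSP60, fell from 579 ± 14.6 to 518 ± 13.2 CPM (SD, n = 3), a log2 fold change of -0.16 (SE 0.03). *HSPE1*, which lies head to head with *HSPD1* on chromosome 2 and encodes HSP10, the lid of the HSP60 chamber, had 42.3, 40.0 and 39.5 CPM in control and 38.4, 39.3 and 38.4 CPM in KD libraries. The groups of *HSPE1* did not overlap, but its change was not called (log2 fold change -0.07, interval -0.19 to 0.05), and this interval includes the value of *HSPD1*. The *HSPE1* count is less certain, since 31.7% of the windows of 100 bases in its transcript occur in other genes.

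Among J-domain genes, *DNAJB6* (ENSG00000105993, chromosome 7, 157335381 to 157417439), known for keeping aggregation-prone proteins soluble, was the only one of 5 that was called. It had 45.8, 47.7 and 48.7 CPM in control and 68.1, 64.3 and 67.3 CPM in KD libraries, a log2 fold change of 0.49 (SE 0.05, adjusted p = 3.77e-05). *DNAJA1* and *DNAJA2*, the common partners of HSC70, were at -0.02 and 0.01, with intervals from -0.11 to 0.07 and from -0.12 to 0.13. *DNAJB1*, the J-domain protein of the heat shock response, was at -0.07 (adjusted p = 0.166), and was called lower only once a trend with GC content was taken out of every library, at an adjusted p of 0.0233 without and 0.0255 with the replicate block. *DNAJB4* was low, at 4.14 ± 0.477 CPM in control and 3.36 ± 0.247 CPM in KD cells (SD, n = 3), and not called.

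Of the BAG genes, *BAG1*, whose product links HSP70 to the proteasome, rose from 45.0 ± 4.46 to 54.2 ± 2.19 CPM (SD, n = 3), a log2 fold change of 0.27 (adjusted p = 0.0199 in edgeR). This call was lost without control library 1 or 3 and without KD library 1 or 3, with adjusted p-values of 0.0592, 0.0618, 0.0966 and 0.0564. *BAG3*, the stress-inducible BAG protein of selective autophagy, was at 0.05 with an interval from -0.15 to 0.25. *BAG2* was weakly expressed, at 2.82 ± 0.364 CPM in control cells, and 42.7% of its exonic bases overlap *RAB23* on the opposite strand.

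*HSPB1* (ENSG00000106211, chromosome 7, 76302673 to 76304295), which encodes HSP27, a holdase that binds unfolding proteins without ATP, rose as well. It had 34.7, 37.0 and 36.7 CPM in control and 52.3, 49.7 and 54.9 CPM in KD libraries, a log2 fold change of 0.53 (SE 0.06, adjusted p = 5.80e-05). *HSF1*, the master factor of the heat shock response, had 72.3, 72.8 and 73.4 CPM in control and 71.4, 69.4 and 70.1 CPM in KD libraries and was not called (log2 fold change -0.05, interval -0.14 to 0.04). *HSF2* was not called at 11.4 ± 0.86 and 10.6 ± 1.4 CPM (SD, n = 3). The activity of the HSF1 protein was not measured here.

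The genes that rose included *HSPA1A*, *HSPA1B*, *HSPB1* and *HSP90AA1*, all known heat shock genes, while *HSPH1*, *DNAJB1* and *BAG3*, which belong to the same response, were not called and *CHORDC1*, *STIP1*, *HSPD1* and *HSPA8*, also heat shock genes, fell. Of the 7 higher genes, *HSPA1A*, *HSPA1B* and *HSPB1* reached an absolute log2 fold change of 0.5, and of the 12 lower genes *CHORDC1* did. Across 15 alternative analyses, the log2 fold change of *HSPB1* ran from 0.472 to 0.568 and that of *DNAJB6* from 0.463 to 0.514. Counts of all 35 genes together made up 0.978% ± 0.0123 of all counts in control and 0.922% ± 0.00792 in KD libraries (SD, n = 3).

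**Figure D4:**
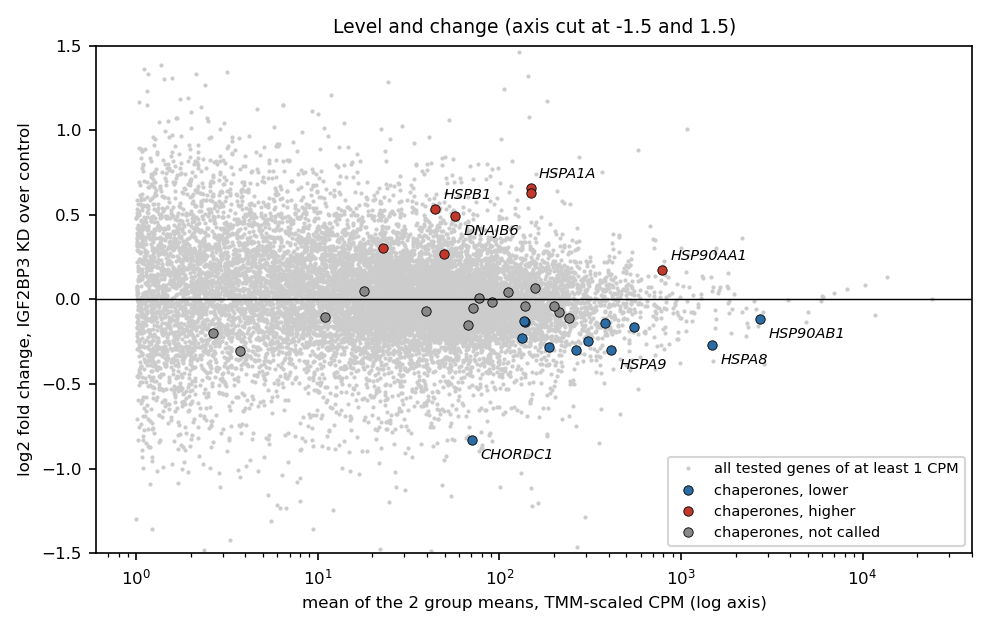
Log2 fold change (y axis) against mean level (x axis, log scale, CPM) of all 14289 tested genes with at least 1 CPM (gray) and of the chaperone genes (colored by call), with 30 genes beyond the limits of the y axis. Most lowered chaperones lie above 100 CPM, where the gray cloud is narrow, and CHORDC1 and the HSPA1A and HSPA1B pair lie at its edge.

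The 3′ UTRs were searched for the 7-base words GATTACT and ACACATC, because coding genes with these words were called lower and higher more often in these same libraries, so that the counts below are not independent of that choice. Of the 1072 tested coding genes with GATTACT in the 3′ UTR of the canonical transcript, 35.1% were lower, against 12.6% of the 12867 without it. GATTACT occurred in 5 of the 35 chaperones (14.3%), and in 7.69% of the tested coding genes. Of these 5, *CHORDC1* and *HSPA9* fell, and *HSPH1*, *DNAJA1* and *BAG2* were not called. ACACATC occurred in 3 of the 35 chaperones (8.57%), *DNAJB6*, which rose, and *HSPH1* and *BAG2*, and in 9.53% of the tested coding genes. Of the 1328 tested coding genes with this word 28.1% were higher, against 11.5% without it. None of the CCT genes, *HSPA1A*, *HSPA1B*, *HSPA8*, *HSPB1* or the HSP90 genes held either word. A longer 3′ UTR has more room for a word, and its length was not taken into account in any of these counts or shares. The sites of the 3 genes that changed are shown in 30 bases each on hg38, on the strand of the gene, with the word in capitals.

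CHORDC1, chr11:90201910-90201939, minus strand: ctatgtgggatGATTACTtttttaaggagg

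HSPA9, chr5:138554598-138554627, minus strand: tgtagaaatgaGATTACTgtatttccaaaa

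DNAJB6, chr7:157417371-157417400, plus strand: tgtaaccctaaACACATCatgtattttaaa

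Counting could mix reads of different genes, since the strand setting of the counting is not given in the sources used here. In GENCODE v44, 19 of the 35 chaperones shared exonic bases with another gene, and in 6 of them (*BAG2*, *HSPA1B*, *CCT5*, *HSPA8*, *HSPE1* and *CCT4*) a single other gene covered over 10% of the exonic bases. For *CCT5* this was 30.8%, on the strand opposite to the gene. *TCP1* shares 9.3% of its exonic bases with *ACAT2* on the opposite strand, and *ACAT2* was lower in KD cells at a log2 fold change of -0.39. The part of these overlaps in the results was not tested. The pseudogene *DNAJB6P1* matches 11.2% of the windows of *DNAJB6* and had 212 to 296 counts per library.

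A list of 84 other cytosolic and mitochondrial chaperone genes, compiled from general knowledge of these families, was read in the same fit. In KD cells 20 of the 78 that were tested were lower (25.6%) and 6 higher (7.69%), and the median log2 fold change was -0.05. The shares were 10.6% and 9.87% of all tested genes, and 19.3% and 16.5% of those averaging 10 CPM or more. Some genes of the list did not reach this level. The lower genes with the smallest p were *ST13*, which encodes the HSP70-interacting protein HIP, *DNAJC7*, a J-domain protein that binds both HSP70 and HSP90, *DNAJC5*, the cysteine string protein, and *RUVBL1*, an AAA+ ATPase of the R2TP complex. *ST13* went from 286 ± 2.62 to 202 ± 3.79 CPM and *DNAJC7* from 71.7 ± 1.01 to 40.4 ± 2.06 CPM (SD, n = 3), with log2 fold changes of -0.50 and -0.83. *DNAJC5* and *RUVBL1* were at -0.49 and -0.39. The higher genes with the smallest p were *UNC45A*, a myosin chaperone that shares 17.8% of its exonic bases with *HDDC3* on the opposite strand (log2 fold change 0.30), *HSPA2*, an HSP70 best known from testis (0.60), *CDC37L1*, a relative of the kinase co-chaperone CDC37 (0.28), and *DNAJC15*, of the mitochondrial inner membrane (0.24). The list had 17 calls without control library 3 and 15 without KD library 1.

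Chaperones of the endoplasmic reticulum (ER) are set beside them for their compartment. Of 24 ER genes, all tested, 5 were lower and 4 higher in KD cells, with log2 fold changes between -0.35 and 0.33 and a median of 0.02. These are 20.8% and 16.7% of the list, near the 19.3% and 16.5% of all tested genes averaging 10 CPM or more. *HSPA5*, which encodes BiP, the HSP70 of the ER, was not called at 581 ± 11.5 and 603 ± 12.5 CPM (SD, n = 3), nor was *HSP90B1*, the HSP90 of the ER, at 419 ± 14.2 and 421 ± 1.9 CPM. The ER genes lower in KD cells with the smallest p were *HYOU1*, *DNAJB11*, *PDIA4* and *DNAJB9*, with log2 fold changes of -0.27, -0.24, -0.15 and -0.35, and the higher ones were *SIL1*, *CALR*, *DNAJC1* and *P4HB* at 0.33, 0.10, 0.25 and 0.09. Without control library 3 the ER list had 4 calls, and without KD library 1 or 3 it had 5. No test was made between the lists.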

How the data were processed

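RNA-seq of 6 OE-19 libraries was analysed. The authors aligned paired reads of 150 bases to hg38 with hisat2 at default settings and counted reads per gene with featureCounts, and the submitters' processing notes also name fastp. The deposited values are these counts, without normalization. Tool versions, annotation release and strand setting are not given in the sources used here. A directional library kit was used.

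Of the table, 132 repeated entries were left out. The test was edgeR's quasi-likelihood test (glmQLFit and glmQLFTest, version 4.0.16 under R 4.3.3) on these counts after filterByExpr (minimum count 10, minimum total 15) and TMM scaling, with Benjamini-Hochberg adjustment over 19778 genes at a threshold of 0.05. Standard errors are the log2 fold change divided by the square root of F, and 95% intervals use the moderated degrees of freedom. CPM are TMM-scaled. Positions and overlaps come from GENCODE v44. In a test on simulated counts of 19778 genes, the fit called 54% of 200 changed genes and 13 that were unchanged. The simulated log2 changes were at least 0.5 in size. Most chaperone calls were smaller, so the 54% does not give the recovery at their size. A two-sided exact permutation test of 3 against 3 libraries cannot go below 0.1 and was not used.

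All members are named, and from the other lists at most 4 called genes per direction with the smallest p, plus *HSPA5* and *HSP90B1*, chosen after their values were seen. Members and lists were chosen with earlier results of these data known. *TBCE* was left out of its list because 2 identifiers carry its symbol. Alternatives were DESeq2 1.42.0, RLE scaling, other filters, a replicate block, offsets for GC content or exon length, and each library left out. Between same-numbered libraries, deviations from the group means correlated at -0.0295, -0.0924 and -0.0771 over genes. These values show no sign that the numbers pair libraries, but cannot exclude it. A chi-square per degree of freedom was 9.86 to 17.6 within groups, so no library repeats another.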

Additional observations from a re-analysis of the deposited data

How the results depend on the processing

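Between 16 and 22 of the tested chaperones were called under the alternatives other than the limit on size, against 19 in the main analysis. The call was lost under 5 of 15 alternatives each for *HSPA4*, *TCP1* and *BAG1*, one of them the analysis with no low-count filter, and gained under some for *CCT4*, *AHSA1* and *DNAJB1*. The other 16 called chaperones were called in the same direction under each of the 15 alternatives. Replicate numbers as a block changed no chaperone's call (19 called, 12 lower and 7 higher). A limit of 0.5 on the size of the log2 fold change was applied to the main analysis only. It left 4 chaperones (1 lower, 3 higher) and 5 of the other chaperones (3 lower, 2 higher). With this limit, 0 ER genes (0 lower, 0 higher) and 881 of all genes (416 lower, 465 higher) were left. With no low-count filter, 3 of the other chaperones and 2 ER genes were higher, and the exon length offset with the replicate block also gave 2 higher ER genes. With each library left out in turn, calls ranged from 16 to 18 for the chaperones, 15 to 22 for the other chaperones (13 to 17 lower, 2 to 5 higher) and 4 to 9 for ER genes (0 to 4 higher). The median log2 fold change of the chaperones was -0.1192 with the exon length offset, -0.1208 with this offset and the replicate block, and -0.1091 to -0.06913 with a library left out. *DNAJA2*, not called, had log2 fold changes of -0.00058 with DESeq2 and -0.0026 with no filter, and -0.02942 to 0.07178 with a library left out, and *BAG3* had -0.03058 to 0.1411. The cause was not tested. The 95% intervals of the log2 fold change were wide for the low-count chaperones *BAG2* (-0.60 to 0.21) and *DNAJB4* (-0.66 to 0.05). Both intervals leave out a fall as large as that of *CHORDC1* and a rise as large as that of *HSPA1A*. Falls down to the lower limit and rises up to the upper limit of each interval are not left out.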
